A study of Mus musculus with 4 samples.

Results

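Microglia of OVA-treated mice were set against microglia of PBS-treated controls at postnatal day 30 (P30). The comparison used 2 of the 4 arrays of the series and covered 8807 expressed genes out of 17614 named genes. A gene was represented by a probe set that carries exactly 1 gene symbol, the brightest where there were several. It was called expressed when its mean over all 4 arrays was at or above that of the median gene, a floor of 7.18 in log2 intensity. Every difference below is the log2 value of the OVA array minus that of the PBS array.

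The series, on allergic airway inflammation in the early postnatal period, used male C57BL/6J mice. The PBS group was the control and the OVA group the allergy group, and cells were taken from whole brain 1 day after the intranasal challenge, at P30 or at postnatal day 70 (P70). Material from 4 samples was pooled in each group and hybridised to 1 array, so differences between animals were averaged before the measurement. No other allele, driver or agent is named in the labels, and how the cells were separated from the brain is not stated in the labels. With 1 array per group there is no spread within a group and no test, and the number of arrays limits the precision of every value. Treatment and the handling of each pool cannot be told apart in this design.

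Microglia are the resident macrophages of the brain and survey it through receptors for nucleotides, complement, lipids and microbial patterns. When a kinase cascade reaches their nuclei, immediate early genes are transcribed within minutes without new protein synthesis. Among these are the AP-1 subunits, the Egr factors, the phosphatases that switch the kinases off and the proteins that destroy short-lived messages. Neutrophils are short-lived phagocytes that carry preformed granules with lactoferrin, cathelicidin, gelatinases and lysozyme, and the cytosolic alarmin pair S100a8 and S100a9.

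The arrays had similar medians over all probe sets, with intensities of 131 for PBS and 132 for OVA at P30, and of 111 and 105 at P70. Each array had an upper limit shared by its strongest probe sets, at 19.88 on the PBS array and 19.74 on the OVA array of P30 and at 19.93 on both P70 arrays. At P30, 98 and 109 probe sets lay within 0.01 of these limits. A gene at the limit carries the difference of the limits, -0.14, instead of a measured one. At P30, 9 expressed genes showed that difference to within 0.0001, among them Cx3cr1, Selplg, Cst3 and Sparc. Most of these lay below the limits, such as Sparc at 16.13 and 15.99, so for them the match is one of differences alone. The 9 defining markers of microglia used here were all expressed. Those 9 summed to an intensity of 526504 for PBS and 486311 for OVA, a ratio of 0.924. Cx3cr1, which lay below the limits, enters this sum with a difference equal to that of the limits.

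The P30 arrays were close to each other for most genes. The median difference over the 8807 expressed genes was -0.01 with an SD of 0.21 across genes, and 83.6% of them lay within 0.25 of 0. In OVA, 57 genes were at least 1.5-fold higher (0.647% of those expressed) and 77 were at least 1.5-fold lower (0.874%), together 1.52%. At 2-fold, 16 genes were higher and 16 lower, 0.182% each. At the edge of the 1.5-fold threshold, Srsf5 (0.59) was the last gene inside and H2bc3 (0.58) the first outside on the higher side. On the lower side Slamf9 (-0.59) was inside and Csprs (-0.58) outside.

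The spread between the arrays grew with signal. With the expressed genes split by mean level into 4 sets of equal size, the set of lowest level had an SD of 0.18 and a median of 0.01. The set of highest level, above 9.46, had an SD of 0.28 and a median of -0.05. The share past 1.5-fold either way was 0.999% in the first and 2.95% in the second. A measure of the noise within an array came from 74 pairs of expressed probe sets of the same gene. Their P30 differences disagreed by a median of 0.144, and 3 pairs disagreed by at least 1.5-fold. Differences between animals and between isolations are not part of that figure.

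**Figure D1:**
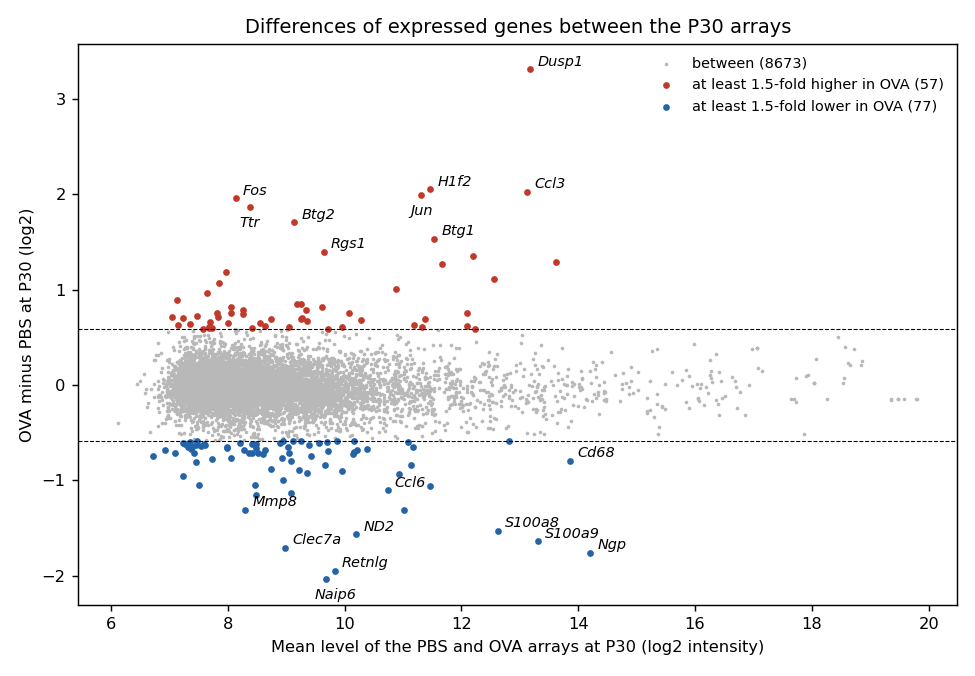
Each point is 1 of the 8807 expressed genes, with the mean log2 intensity of the P30 arrays on the x axis and the OVA minus PBS log2 difference on the y axis; dashed lines mark 1.5-fold. Dusp1 stands alone at 3.31, and the 57 higher and 77 lower genes lie outside a narrow band that holds the rest.

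Dusp1 had the largest difference of any expressed gene at P30. It encodes a nuclear phosphatase that inactivates p38, JNK and ERK kinases and is itself an immediate early gene. Its level was 11.52 in PBS and 14.83 in OVA on the P30 arrays, and 8.75 and 9.29 at P70. The OVA array at P30 was thus the highest of the 4 by a wide margin, 9.91-fold above its control. The family did not move as a whole: of 18 listed MAP kinase phosphatases and Sprouty inhibitors, 11 were expressed, with a median of 0.00. Besides Dusp1, Dusp7 was past the threshold in the other direction (-0.59, at 10.46 in PBS and 9.87 in OVA), and it was inside it under each of the other scalings tried. Dusp6, an ERK phosphatase, had a difference of 0.52 at P30 and of 1.10 at P70.

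AP-1 is a dimeric transcription factor built from Jun, Fos and ATF subunits. Jun was at 10.31 in PBS and 12.30 in OVA on the P30 arrays, and at 8.46 and 8.76 at P70, so both P30 arrays were above both P70 arrays. The P30 difference was 1.99, or 3.98-fold. Fos was at 7.16 in PBS and 9.12 in OVA on the P30 arrays, and at 6.30 and 6.47 at P70. Only the OVA array at P30 had Fos above the floor, and the same held for Atf3, at 7.16 and 8.12 at P30 and 7.11 and 7.10 at P70. These 2 genes entered the expressed set through the array in which they were high, so their being past the threshold was partly fixed by the filter.

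Of 16 listed AP-1 genes, 15 were found and 8 expressed, 3 of them at least 1.5-fold higher and none lower, with a median of 0.02. The shares over all expressed genes were 0.647% higher and 0.874% lower. The other 5 expressed members, Batf, Batf3, Atf2, Mafg and Mafk, differed by between -0.17 and 0.06. Fosb, a Fos paralogue, was at 6.34 in PBS and 7.37 in OVA on the P30 arrays and at 6.23 and 6.01 at P70; its mean was under the floor, so it is not among the 57. Fosl1, Fosl2, Jund, Batf2, Jdp2 and Maff were also under the floor. The higher AP-1 genes were therefore Jun, Fos and Atf3, with the bZIP partners of the Maf and Batf groups near 0.

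Among the other immediate early genes, Egr1, Ier2 and Rhob were past the threshold. Egr1, a zinc finger transcription factor, was at 7.39 and 8.57 in PBS and OVA at P30 and at 6.63 and 6.85 at P70. Ier2, a nuclear regulator, was at 7.31 and 8.38 at P30 and at 7.03 and 7.24 at P70. Rhob, a small GTPase of endosomes whose message is induced within minutes, was at 11.53 and 12.88 at P30 and at 10.46 and 10.90 at P70. In each of the 3 genes the OVA array at P30 was the highest of the 4. Of 30 listed genes of this kind, 29 were found and 15 expressed. Of these, 3 were higher and none lower, and the median was 0.28. All expressed genes had a median of -0.01, with 0.647% higher and 0.874% lower. Sgk1 (0.58), Klf6 (0.43), Ier5 (0.40), Mcl1 (0.34) and Myc (0.28) lay between 0 and the threshold. Nr4a1, an orphan nuclear receptor of the same response, differed by -0.18.

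A further group encodes proteins that shorten the life of messages. Btg1 and Btg2 recruit the CCR4-NOT deadenylase and restrain proliferation, and Zfp36 and Zfp36l1 bind AU-rich elements in cytokine messages. Btg2 was at 8.28 in PBS and 9.99 in OVA on the P30 arrays, and at 7.75 and 7.81 at P70. Btg1 was at 10.77 and 12.30 at P30 and at 9.21 and 9.64 at P70. All 4 genes had their highest level on the OVA array at P30. Zfp36l1 was at 12.98 and 14.27 at P30, a difference of 1.29, and at 12.46 and 12.95 at P70. Zfp36 was at 11.03 and 12.30 at P30, a difference of 1.27, and at 10.06 and 10.13 at P70.

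Of 24 listed decay factors, 22 were found and 18 expressed, 4 of them higher and none lower. The subunits of the deadenylase itself stayed near 0, with Cnot8 at 0.16, Cnot6 at 0.15, Cnot2 at 0.02 and Cnot4 at -0.13. Zfp36l2, the remaining expressed member of its family, differed by 0.46. Over the lists of AP-1 subunits, other immediate early genes, phosphatases and decay factors together, 52 genes were expressed. Of these, 11 were higher and 1 was lower, beside 0.647% and 0.874% of all expressed genes, and the median was 0.06. The differences were thus carried by a minority of large members, and most of the rest lay close to the centre of all genes.

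**Figure D2:**
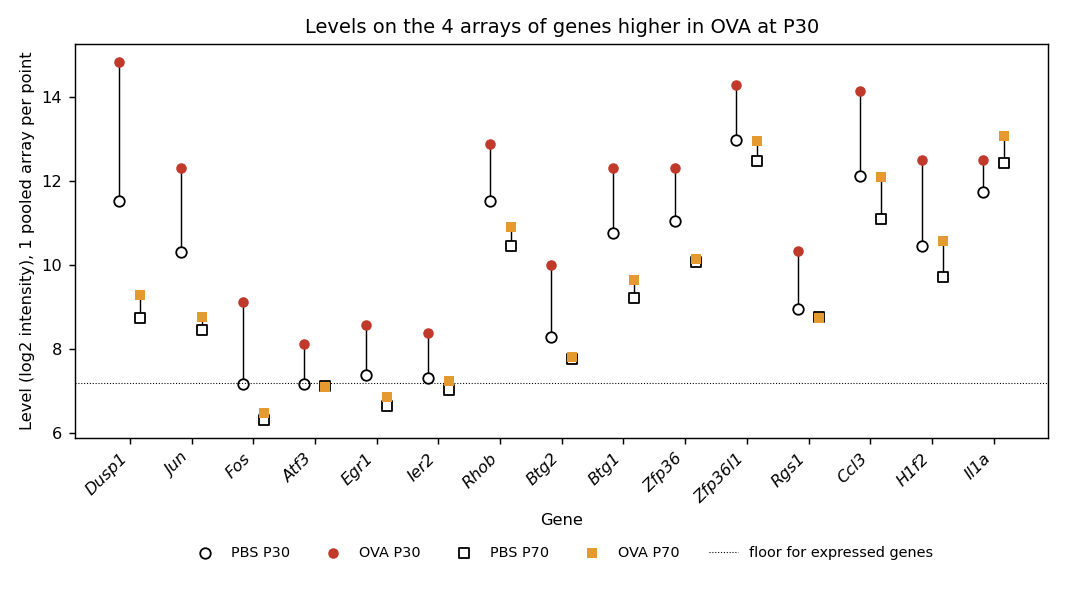
Log2 intensity of 15 genes that were at least 1.5-fold higher in OVA at P30, 1 point per pooled array: circles for P30, squares for P70, open for PBS and filled for OVA. The filled circle is above the open circle for every gene, while the squares of Fos, Atf3, Btg2, Zfp36 and Rgs1 lie within 0.17 of each other.

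The promoters of these genes are shown because several hold the letters of the cyclic AMP response element (CRE), which CREB and ATF factors bind. The windows are the 250 bases before the RefSeq start site on GRCm38.p6, 5′ to 3′ on the strand of the gene. Capitals mark the CRE core, TGACGT or its reverse complement ACGTCA.
Dusp1 (chr17:26508473-26508722, minus strand): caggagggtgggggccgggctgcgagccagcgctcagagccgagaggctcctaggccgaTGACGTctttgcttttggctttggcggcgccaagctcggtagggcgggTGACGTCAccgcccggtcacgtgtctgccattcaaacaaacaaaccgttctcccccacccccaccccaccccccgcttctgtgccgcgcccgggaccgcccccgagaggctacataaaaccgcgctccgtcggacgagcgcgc
Fos (chr12:85473640-85473889, plus strand): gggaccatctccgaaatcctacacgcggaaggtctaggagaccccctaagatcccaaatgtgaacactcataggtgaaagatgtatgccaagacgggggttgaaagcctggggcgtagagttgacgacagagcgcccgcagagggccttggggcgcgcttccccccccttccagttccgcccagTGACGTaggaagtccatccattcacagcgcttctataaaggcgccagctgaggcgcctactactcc
Btg2 (chr1:134079156-134079405, minus strand): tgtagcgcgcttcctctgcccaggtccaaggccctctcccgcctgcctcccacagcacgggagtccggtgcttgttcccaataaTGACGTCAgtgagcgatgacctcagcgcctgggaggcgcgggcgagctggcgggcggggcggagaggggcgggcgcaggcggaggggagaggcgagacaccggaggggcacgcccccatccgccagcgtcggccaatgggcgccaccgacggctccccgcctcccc
Btg1 (chr10:96616751-96617000, plus strand): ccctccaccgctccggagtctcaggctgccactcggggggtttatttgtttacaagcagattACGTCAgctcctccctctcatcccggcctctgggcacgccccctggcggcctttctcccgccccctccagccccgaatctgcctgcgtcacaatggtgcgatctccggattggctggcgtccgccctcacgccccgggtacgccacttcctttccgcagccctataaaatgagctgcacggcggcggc
Atf3 (chr1:191183334-191183583, minus strand): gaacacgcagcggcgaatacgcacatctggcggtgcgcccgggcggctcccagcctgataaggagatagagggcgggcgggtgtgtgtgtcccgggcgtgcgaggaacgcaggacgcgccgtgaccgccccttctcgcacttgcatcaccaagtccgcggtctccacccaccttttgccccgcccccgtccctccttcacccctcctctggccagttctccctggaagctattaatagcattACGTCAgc
Dusp1 held the core at 191 to 186 bases before the start and again, on both strands as the full palindrome TGACGTCA, at 143 to 136 bases. Btg2 held the palindrome at 166 to 159 bases. Fos held 1 core at 66 to 61 bases, Btg1 1 at 188 to 183 and Atf3 1 at 8 to 3. Both strands were searched in every window, and an overlap of 2 cores in a palindrome counted as 1 gene.

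Of the 57 higher genes, 38 had a promoter in the RefSeq table, and 8 of these (21.1%) held the core: Atf3, Btg1, Btg2, Dusp1, Fos, H2bc1, Per1 and Zfand5. The same letters stood in 5 of 55 lower genes with a promoter (9.09%), in 11.9% of 6926 expressed genes and in 7.29% of all 27025 promoters. A TATA box (TATAAA on either strand) stood in 12 of the 38 (31.6%), in 4 of the 55 (7.27%) and in 5.33% of expressed genes. The AP-1 letters TGANTCA stood in 2 of the 38, Il1a and Zfp36l1, and in 5.21% of expressed genes. A CArG box, the serum response element, was found in 1 of the 38, Zfp36, in 0 of the 55 and in 1.34% of expressed genes. Such counts take in genes outside the rule for named genes, the motifs were picked with these differences known, and a match describes letters in a window, not binding.

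NF-kB is held in the cytoplasm by IkB proteins, whose genes it also switches on. Nfkbiz, a nuclear IkB protein, was at 7.43 in PBS and 8.03 in OVA on the P30 arrays, and at 7.59 and 7.97 at P70. Nfkbia, the main cytoplasmic inhibitor, was at 9.41 in PBS at P30 and 1.51-fold above that in OVA, while at P70 it was at 10.17 and 10.14. The P30 differences, 0.60 and 0.59, were just past the threshold and lay inside it with an offset of 32 added to the intensities. Of 25 listed genes of the pathway, 16 were expressed, 2 higher and none lower, with a median of 0.14. The shares over all expressed genes were 0.647% higher and 0.874% lower. The deubiquitinase Tnfaip3 differed by 0.42 and the subunit Rel by 0.26.

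Of the chemokine ligands, Ccl3, Ccl4 and Ccl12 were higher and Ccl6 was lower, beside 0.647% higher and 0.874% lower over all expressed genes. Ccl3, which draws in monocytes and other leukocytes, was at 12.11 in PBS and 14.14 in OVA on the P30 arrays, and at 11.09 and 12.08 at P70. Its P30 difference was 4.07-fold and it was also 1.98-fold higher in OVA at P70. Ccl4, a chemokine of the same family, was under the floor in PBS at P30 (6.88) and at 7.59 in OVA, with 7.12 and 7.87 at P70. Ccl12, a ligand of Ccr2, was at 7.88 and 8.62 at P30 and at 9.18 and 10.40 at P70. All 3 were therefore higher in OVA at both ages. Ccl4 was above the floor on the OVA arrays alone, so its being past the threshold was partly fixed by the filter. With the offset of 32 its P30 difference lay inside the threshold (0.58). Ccl6, a macrophage and neutrophil chemokine, was at 11.29 in PBS and 10.18 in OVA on the P30 arrays, with no such gap at P70 (12.57 and 12.50).

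Of 30 listed chemokine ligands, 14 were expressed at the floor used, and their median at P30 was 0.13, or -0.01 when genes under the 75th percentile of mean level were left out. Ccl2, another Ccr2 ligand, differed by 0.42. The eosinophil chemokine Ccl11 differed by -0.21 and the type 2 chemokine Ccl17 by 0.27. Rgs1, which shortens signalling by chemokine receptors, was at 8.94 and 10.34 at P30 and at 8.77 and 8.73 at P70. It was the only 1 of 11 expressed genes in the list of chemokine receptors and Rgs proteins past the threshold; the list had a median of 0.01.

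Cytokine genes moved less. Il1a was at 11.72 in PBS and 12.48 in OVA on the P30 arrays, a difference of 0.76, and at 12.43 and 13.08 at P70. Il1b differed by 0.13, Il6 by 0.14, Il18 by 0.05 and Tgfb1 by -0.01. Il1f9, an epithelial and neutrophil cytokine of the IL-1 family, was the 1 lower member, at 7.27 in PBS and under the floor in OVA (6.58). Of 31 listed cytokines, 15 were expressed and the median was 0.02.

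Linker histone and core histone genes were among the higher genes. H1f2, a linker histone, was at 10.44 in PBS and 12.49 in OVA on the P30 arrays, and at 9.71 and 10.57 at P70. H1f3 was at 8.95 and 9.73 at P30 and at 8.01 and 8.15 at P70. These were the only expressed genes of 5 linker histones found. Outside the rule for named genes, and chosen after the values were seen, the core histone genes H2bc21 (0.82) and H2bc1 (0.72) were higher while H3c7 (-0.77) was lower. Histone genes are near-identical copies of each other, so the split of signal between them is uncertain.

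A list made mainly of genes known to be induced in microglia while brain tissue is dissociated overlaps this set. It names 23 symbols, some of them old and new names of 1 gene; 10 genes were expressed, and all 10 also stand in another list here. Of those 10, 9 were at least 1.5-fold higher in OVA and none lower: Fos, Zfp36, Jun, Rgs1, Egr1, Btg2, H1f3, Atf3 and Dusp1. The share higher over all expressed genes was 0.647%. Ier5, the remaining 1, differed by 0.40. Fos and Atf3 passed the filter only through the array in which they were high. With no filter on dim genes, the median of the 15 members found was 1.03. The median of the 10 was 1.33. Their P70 differences had a median of 0.16, and none was past the threshold. Summed over all 15 found members the intensity came to 8799 (PBS) and 44541 (OVA) at P30, and 3670 and 4209 at P70. Dusp1 alone went from 2937 to 29102 at P30 and makes up most of the OVA sum at that age, but not of the PBS sum. Among members under the floor, Fosb was at 6.34 and 7.37 at P30, while Hspa1a differed little (5.67 and 5.71 at P30), as did Socs3 (5.30 and 5.34). Ecrg4 (6.23 on both P30 arrays) and Folr1 (6.23 and 6.29) were also under it and also stand in the choroid plexus and ependymal list. The part of cell isolation in the P30 differences of the immediate early genes was not tested.

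Targets of the glucocorticoid receptor, the receptor for the stress hormone corticosterone, shared members with the same set. Of 28 listed targets, 16 were expressed and 4 were higher: Dusp1, Zfp36, Per1 and Nfkbia. Over all expressed genes, 0.647% were higher. Per1, a clock gene, was at 7.36 in PBS and 8.02 in OVA on the P30 arrays and at 7.16 and 7.35 at P70. Targets outside the immediate early set were mixed: the metallothionein gene Mt1 differed by 0.37, Txnip by 0.37, Errfi1 by -0.18 and Bcl6 by -0.23. Sgk1 (0.58), given above as an immediate early gene, is also a listed target. Among targets whose mean was under the floor, Fkbp5 was under it in PBS and at 7.47 in OVA at P30. Tsc22d3 was at 6.89 and 7.13 at P30 and Ddit4 at 5.96 and 6.37. Pdk4 went the other way, at 5.97 and 5.66, as did Klf9, Il1r2 and Fam107a. The median of the 16 was 0.01 while their mean was 0.38, with Dusp1 at 3.31 the largest member. The median was 0.37 with the filter on dim genes set on the P30 arrays alone and 0.19 with a 75th percentile filter, and with the offset 2 targets were higher.

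Other genes of the 20 highest had less known roles in microglia. Tagap, a GTPase-activating protein of immune cells, was at 12.01 in PBS and 13.11 in OVA on the P30 arrays and at 11.36 and 11.66 at P70. Erdr1, a secreted factor, was at 10.38 and 11.39 at P30 and at 12.02 and 12.73 at P70. Rabif was under the floor in PBS (6.69) and at 7.58 in OVA. The pseudogene probe sets Rps2-ps9 (0.85) and Hspe1-ps4 (0.84) may share signal with their parent genes. Of the 57 higher genes, 7 bear pseudogene symbols, 8 were under the floor in PBS at P30, and 25 stand in a list. Beyond the named rule, and chosen after their values were seen, the transcriptional inhibitor Id2 differed by 0.68, the nuclear receptor coactivator Pnrc1 by 0.76 and the splicing factor Srsf5 by 0.59.

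Genes of neutrophil granules made up the clearest lower group. The secondary granule gene Ngp was at 15.08 in PBS and 13.33 in OVA on the P30 arrays, and at 17.35 and 17.20 at P70. Camp, the cathelicidin precursor, was at 11.67 and 10.36 at P30 and at 16.99 and 17.13 at P70. Retnlg, a resistin-like protein of neutrophils, was at 10.81 and 8.86 at P30 and at 14.27 and 13.42 at P70. In all 3, both P70 arrays were far above both P30 arrays, and the OVA array at P30 was the lowest of the 4. The P30 differences were 3.38-fold, 2.48-fold and 3.86-fold.

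The other granule genes past the threshold were Mmp8, Lyz1, Lyz2, Ltf and Pglyrp1. Mmp8, neutrophil collagenase, was at 8.95 in PBS and 7.64 in OVA on the P30 arrays and at 12.74 and 11.28 at P70, so it was lower in OVA at both ages. Ltf, lactoferrin, was at 9.66 and 8.77 at P30, while at P70 OVA was above PBS (12.44 and 11.96). The lysozyme genes Lyz1 and Lyz2 are near-identical and also expressed by macrophages; Lyz2 was at 11.41 and 10.47 at P30, Lyz1 at 9.44 and 8.44. Pglyrp1, which binds bacterial peptidoglycan, was at 8.77 and 8.06 at P30. Of 24 listed specific and gelatinase granule genes, 21 were found and 17 expressed, 8 of them lower and none higher, with a median of -0.50. Among all expressed genes 0.874% were lower and 0.647% higher. Stfa2l1 (-0.50), Anxa1 (-0.38), Stfa3 (-0.23), Orm1 (-0.17) and Mmp9 (-0.12) were below 0 without passing the threshold, and Hp (0.23) was above it.

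S100a8 and S100a9 form calprotectin, a major cytosolic protein of neutrophils. S100a8 was at 13.38 in PBS and 11.85 in OVA on the P30 arrays and at 18.28 and 17.77 at P70. S100a9 was at 14.13 and 12.49 at P30 and at 17.86 and 17.72 at P70. Both had their lowest level on the OVA array at P30, 2.89-fold and 3.12-fold below PBS. Of 31 listed alarmins, receptors and signalling genes of neutrophils, 18 were expressed, and this pair was the only part of the list past the threshold; the median was -0.24. The receptor genes of the list differed less: Mrgpra2b by -0.49, Trem1 by -0.42, Csf3r by -0.12, Cxcr2 by -0.06 and Ly6g by 0.04.

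Azurophil granules are made earlier in the bone marrow, and most of their genes were too dim to compare. Of 11 genes in the list of azurophil and other early neutrophil genes, 4 were expressed. These 4 (Ly6c2 at 0.25, Mgst2 at 0.20, Fcnb at 0.07 and Serpinb1a at -0.41) had a median of 0.14. Mpo, Elane, Prtn3, Ctsg and Prss57, the granule proteases and peroxidase, were under the floor, so that median does not cover them. Ly6c2 is also a monocyte marker. Over the 3 neutrophil lists together, 38 genes were expressed, 10 were lower, none was higher, 29 differed by less than 0, and the median was -0.24. For all expressed genes the shares were 0.874% lower and 0.647% higher, and the median was -0.01. Across the 10 defining neutrophil markers the summed intensity came to 77618 (PBS) and 29754 (OVA) at P30, a ratio of 0.383, and 886532 and 759343 at P70. Ngp, S100a9 and S100a8 make up most of each sum, so the ratio mainly reflects these genes. Of the 10 markers 6 were lower past the threshold, while Ly6g, Cxcr2 and Csf3r differed less, as given above. In these bulk arrays, fewer cells of a type and less RNA per cell cannot be told apart.

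Markers of monocytes did not follow the neutrophil genes. Of the 5 defining markers 3 were expressed, Ly6c2 (0.25), Plac8 (0.16) and Ccr2 (-0.04), and the 4 found had a summed intensity of 1396 (PBS) and 1579 (OVA) at P30. In the longer monocyte list 24 genes were expressed with a median of -0.10, and only Emb, an adhesion protein, was past the threshold (-0.72, from 7.78 to 7.06). Ear10, an eosinophil-associated ribonuclease gene, was lower, with 7.71 in PBS and 6.75 in OVA on the P30 arrays. Ear6 differed by -0.29. Ear genes are near-identical copies, and of the 5 defining markers of mast cells, basophils and eosinophils only Siglecf was expressed, at 8.59 and 8.61.

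**Figure D3:**
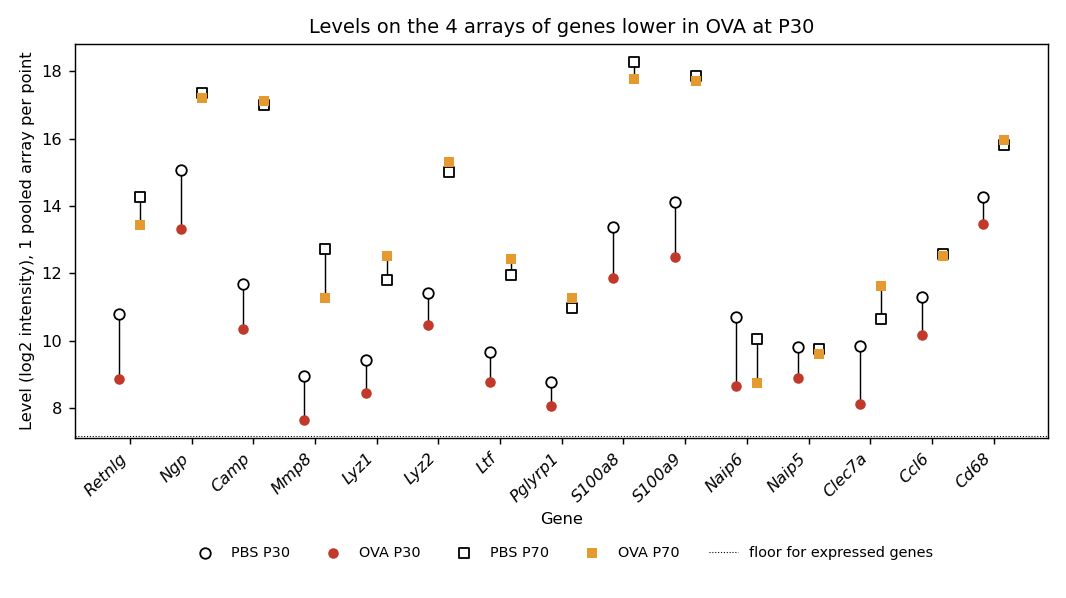
Log2 intensity of 15 genes that were at least 1.5-fold lower in OVA at P30, 1 point per pooled array: circles for P30, squares for P70, open for PBS and filled for OVA. Every filled circle lies below its open circle. All genes shown except Naip6 and Naip5 have both squares above both circles, Clec7a, Ccl6 and Cd68 as well as the granule and S100 genes.

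C/EBP factors drive granule genes during neutrophil maturation. The promoters of 5 lower genes of the neutrophil lists are shown, picked because they hold the letters of a C/EBP site. Windows are as above, and capitals mark the C/EBP letters TTGCNNAA on either strand.
Ngp (chr9:110419558-110419807, plus strand): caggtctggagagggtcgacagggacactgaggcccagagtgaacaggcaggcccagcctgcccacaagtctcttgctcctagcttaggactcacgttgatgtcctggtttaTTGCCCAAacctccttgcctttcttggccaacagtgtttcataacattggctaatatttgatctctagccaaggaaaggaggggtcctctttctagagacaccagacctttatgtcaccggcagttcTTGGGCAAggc
Retnlg (chr16:48872358-48872607, plus strand): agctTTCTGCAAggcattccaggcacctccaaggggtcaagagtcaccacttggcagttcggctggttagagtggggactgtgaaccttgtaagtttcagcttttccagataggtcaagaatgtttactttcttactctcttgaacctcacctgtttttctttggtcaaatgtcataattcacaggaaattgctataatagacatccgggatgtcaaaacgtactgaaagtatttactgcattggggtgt
S100a9 (chr3:90695722-90695971, minus strand): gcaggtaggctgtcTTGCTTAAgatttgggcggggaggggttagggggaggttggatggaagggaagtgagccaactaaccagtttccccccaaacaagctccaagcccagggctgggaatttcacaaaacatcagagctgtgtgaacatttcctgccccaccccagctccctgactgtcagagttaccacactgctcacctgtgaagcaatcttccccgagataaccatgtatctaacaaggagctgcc
Mmp8 (chr9:7558179-7558428, plus strand): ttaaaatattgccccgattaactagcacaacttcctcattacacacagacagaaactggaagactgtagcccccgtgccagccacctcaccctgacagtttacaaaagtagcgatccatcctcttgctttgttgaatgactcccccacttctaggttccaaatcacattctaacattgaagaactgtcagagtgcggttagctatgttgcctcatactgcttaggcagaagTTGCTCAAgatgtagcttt
Lyz1 (chr10:117292869-117293118, minus strand): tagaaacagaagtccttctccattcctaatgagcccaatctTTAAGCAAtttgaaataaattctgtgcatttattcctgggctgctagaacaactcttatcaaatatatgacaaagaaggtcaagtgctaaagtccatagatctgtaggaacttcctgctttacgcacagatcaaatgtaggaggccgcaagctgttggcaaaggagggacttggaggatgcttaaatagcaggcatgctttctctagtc
Ngp held the letters at 138 to 131 and at 11 to 4 bases before the start, Mmp8 at 19 to 12, Lyz1 at 209 to 202, S100a9 at 236 to 229 and Retnlg at 246 to 239. Of the 55 lower genes with a promoter, 10 (18.2%) held them: Cd68, Ear10, Eola1, Ltf, Lyz1, Mmp8, Ngp, Retnlg, S100a9 and Scgb2b11. The share was 7.89% of the 38 higher genes, 9.36% of expressed genes and 10.8% of all promoters. Among the 20 lowest genes, 7 of the 16 with a promoter held the letters. S100a8, another of the 20 lowest, had a promoter without them. The motif was picked with these differences known, and a match describes letters in a window, not binding.

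Naip6 was the lowest gene of the comparison. Naip proteins bind flagellin or parts of bacterial secretion systems and start the Nlrc4 inflammasome. Naip6 was at 10.69 in PBS and 8.66 in OVA on the P30 arrays and at 10.05 and 8.74 at P70, so both OVA arrays were below both PBS arrays. The P30 difference was 4.11-fold. Naip5 was at 9.82 and 8.89 at P30 and at 9.74 and 9.61 at P70, and Naip3, a related sequence, had a level of 7.95 in OVA at P30, 2.06-fold below PBS, and of 9.01 and 8.59 at P70. Naip2 differed by -0.44. The Naip genes lie in a cluster of near-identical copies, so the signals of Naip3, Naip5 and Naip6 are not independent of each other.

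Other inflammasome genes differed in sign. The sensor Nlrp3 was higher by 0.53, from 9.41 to 9.94, and the adaptor Pycard lower, from 10.94 to 10.46 (-0.48). Gsdmd differed by 0.20, Casp1 by -0.04 and Casp4 by -0.17. Of 24 listed Naip, Nlr and inflammasome genes, 17 were expressed, 2 were lower, none was higher, and the median was -0.04. The shares over all expressed genes were 0.874% lower and 0.647% higher.

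Several surface receptors of phagocytes were lower. Clec7a, which encodes the beta-glucan receptor dectin-1, was at 9.84 in PBS and 8.13 in OVA on the P30 arrays, and at 10.63 and 11.63 at P70. It was thus 3.26-fold lower in OVA at P30 and higher by 1.00 in OVA at P70. Clec4a1, an ITAM-coupled lectin, was at 7.90 and 7.28 at P30. Of 27 listed C-type lectin receptors, all were found and 19 expressed. Of these, 2 were lower and none higher, beside 0.874% and 0.647% of all expressed genes, and the median was -0.13. Clec2d (-0.54), Clec5a (-0.47) and Clec4a3 (-0.45) were below 0 without passing the threshold, Clec4a2 differed by -0.08 and Cd209a by 0.31.

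Cd14, the co-receptor for lipopolysaccharide, was at 9.47 in PBS and 8.68 in OVA on the P30 arrays and at 10.13 and 10.45 at P70. It was the 1 gene past the threshold among 23 expressed Toll-like receptors and adaptors, whose median was -0.11. Cd180 differed by -0.44, Tlr9 by -0.38, Myd88 by -0.25 and Tlr7 by 0.06. Among Fc receptors and ITAM adaptors, Fcgr4 was at 7.53 in PBS and under the floor in OVA (6.93), while Fcgr1 differed by -0.20, Fcer1g by -0.12, Tyrobp by 0.09 and Fcgr3 by 0.00. That list had 17 expressed members and a median of -0.12. In the list of inhibitory and related immune receptors 21 genes were expressed. Of these, Lilrb4a (-0.62) and Slamf9 (-0.59) were lower, with Cd33 at -0.16 and Lair1 at -0.04. The share lower over all expressed genes was 0.874%.

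Cd68, a lysosomal glycoprotein used as a marker of phagocytes, was at 14.27 in PBS and 13.47 in OVA on the P30 arrays and at 15.81 and 15.95 at P70. It was 1.74-fold lower in OVA at P30 and differed by 0.14 at P70. Lysosomal genes as a group did not pass the threshold: of 41 expressed hydrolases and membrane proteins none was past it in either direction, and the median was -0.12. Lipa (-0.56), Ctsc (-0.49) and Fuca1 (-0.42) were the lowest members described, and Ctss (0.40, from 18.38 to 18.77) the highest. Of the proton pump of lysosomes, the V-ATPase, 16 subunits were expressed with a median of -0.20. Atp6v1e1 (-0.53), Atp6v1h (-0.51) and Atp6v1b2 (-0.43) lay below, and Atp6v1f (0.40) and Atp6v1c1 (0.36) above. For comparison, expressed genes with a mean level above 9.46 had a median of -0.05.

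Genes of disease-associated microglia, a state described around amyloid plaques, were lower where they were past the threshold. Of 34 listed, 28 were expressed. Clec7a, Ccl6, Lyz2, Cd68 and Lilrb4a were lower and none was higher, beside 0.874% lower and 0.647% higher over all expressed genes. The median was -0.16. Lyz2 and Ccl6 are also neutrophil genes. Cybb (-0.56), Cst7 (-0.51) and Cd9 (-0.51) were close to the threshold. The central genes of the state differed less: Trem2 by -0.27, Apoe by -0.17, Lpl by -0.18 and B2m by 0.43. At P70 the same list had a median of 0.24, with 6 of 28 members higher and none lower, beside 4.01% higher, 1.19% lower and a median of 0.09 over all expressed genes.

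MHC class II molecules present peptides to CD4 T cells, and the genes of 2 of their chains had P30 and P70 differences of opposite sign. H2-Eb1 was at 8.72 in PBS and 8.01 in OVA on the P30 arrays, and at 12.19 and 14.40 at P70. H2-Ab1 was at 10.17 and 9.58 at P30 and at 13.05 and 14.76 at P70. For both genes OVA was below PBS at P30 and above it at P70, with each P70 level above each P30 level. The P30 difference of H2-Ab1 (-0.59) was at the edge and lay inside the threshold after median centring, quantile normalization, lowess centring and the offset. H2-Aa differed by -0.40 and H2-DMb1 by -0.28. Of 14 expressed genes of the pathway 7 differed by less than 0, 2 were lower past the threshold and none higher, with a median of -0.12. Over all expressed genes 0.874% were lower and 0.647% higher. The 19 expressed class I genes had a median of -0.03 and none past the threshold.

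Gpr84, a receptor for medium-chain fatty acids, was at 10.07 in PBS and 9.37 in OVA on the P30 arrays and at 10.15 and 10.76 at P70. Plek, a substrate of protein kinase C, was at 11.38 and 10.78 at P30 and at 11.51 and 12.37 at P70. These 2 were the members past the threshold among 18 expressed genes of the respiratory burst and myeloid kinases, beside 1.52% of all expressed genes. Igsf6, a myeloid surface protein, was at 10.42 and 9.51 at P30 and at 11.71 and 11.93 at P70. Named after their values were seen and outside the rule, Lst1 (-0.65), Plbd1 (-0.67), Vim (-0.66) and Mif (-0.61) were lower; Plbd1 and Vim were under the floor in OVA at P30.

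The remaining genes of the 20 lowest belong to no single group. ND2, which the mitochondrial genome encodes as part of complex I, was at 10.98 in PBS and 9.41 in OVA on the P30 arrays and at 13.53 and 14.20 at P70. Of the 6 mitochondrially encoded genes expressed, COX1 and mt-Rnr1 showed the limit difference, COX2 differed by -0.36, ND3 by -0.07 and ND6 by 0.18. Of 68 expressed nuclear-encoded respiratory chain subunits none was past the threshold and the median was -0.04. Hba-ps4, a globin pseudogene, was at 9.06 and 7.90 at P30 and at 7.26 and 9.28 at P70, and Hbb-bh0, a globin gene of the embryo, at 10.50 and 9.78 at P30. The adult globin genes were not found among the genes kept and Alas2 was under the floor, so red cell content has no marker here. Cd9-ps (-1.06), Eola1 (-1.13) and Smim15 (-1.05) completed the set, the first a pseudogene of Cd9, itself at -0.51. Selenot, an endoplasmic reticulum selenoprotein, was at 11.55 and 10.71 at P30 and at 11.41 and 12.06 at P70.

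Genes of homeostatic microglia were mostly just below 0. Of 44 listed, 40 were found and all 40 expressed. Of these, 32 differed by less than 0, and the median was -0.13. Over all 8807 expressed genes, 4724 differed by less than 0, and those with a mean level above 9.46 had a median of -0.05. The median of the list was -0.03 after quantile normalization and -0.07 after lowess centring. Without the 4 members whose difference equalled that of the limits the median was -0.10. Csf1r, the receptor for CSF1, was at 15.37 in PBS and 15.10 in OVA on the P30 arrays and at 14.72 and 15.12 at P70. P2ry12, the purinergic receptor of resting microglia, was at 13.30 and 13.29 at P30, and Tmem119 at 9.26 and 9.11. P2ry13 (-0.31), Maf (-0.33), Tgfbr2 (-0.39) and Olfml3 (-0.39) were lower members and C1qb (-0.45), at 15.61 and 15.16, the lowest named, while C1qa differed by -0.01. The 3 members past the threshold were higher: Jun and Rhob, described above, and Crybb1, a crystallin expressed by young microglia, at 11.04 and 11.73.

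Border-associated macrophages, which live in the meninges and around vessels, had none of 18 expressed listed genes past the threshold at P30, with a median of -0.10. Ms4a7 (-0.58, from 7.91 to 7.33), Mrc1 (-0.46) and Pf4 (-0.39) were the lowest; Ms4a7 was past the threshold after quantile normalization (-0.65) and lowess centring (-0.59). At P70 the list had a median of 0.50 with 9 of 18 members higher, beside 4.01% and a median of 0.09 over all expressed genes; the 2 comparisons used separate control arrays. Genes of type 2 responses, the class of immunity behind allergy, also had none of 13 expressed members past the threshold at P30. Il4ra differed by -0.27, Stat6 by 0.17, Retnla by -0.13 and Il13ra1 by -0.05, and the median was -0.05.

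**Figure D4:**
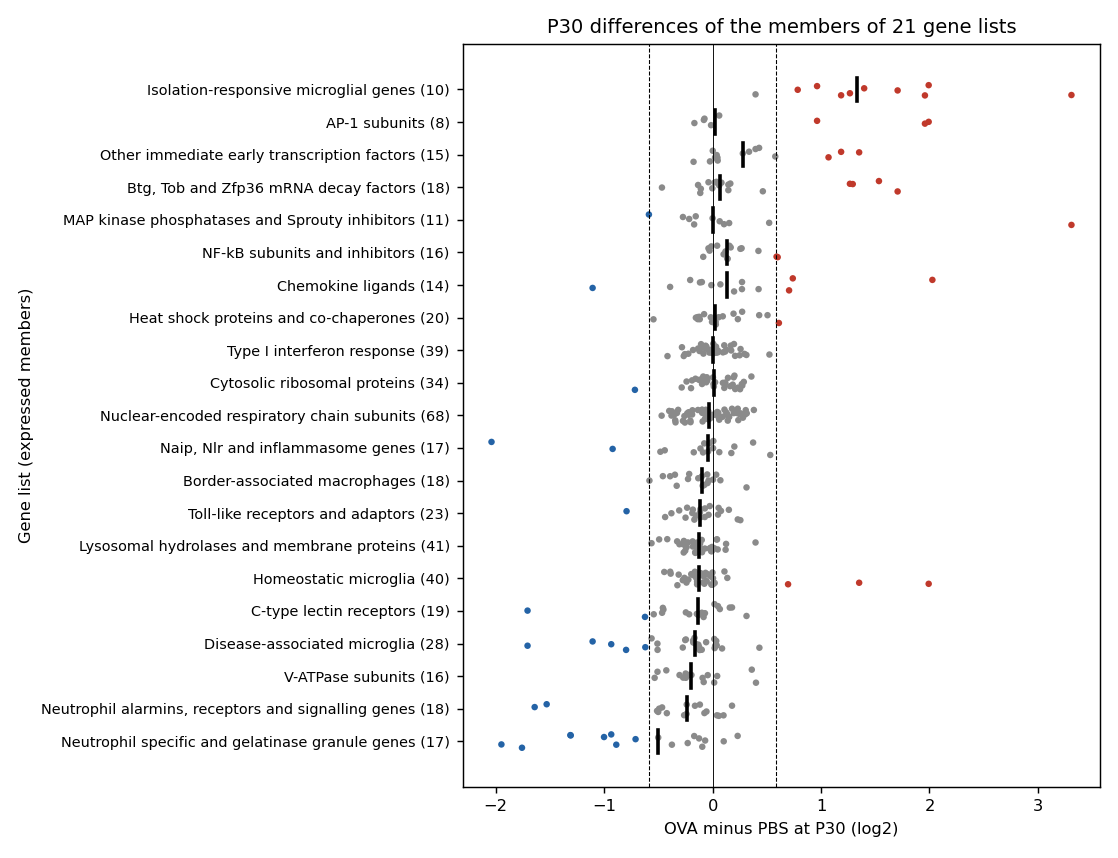
Each point is the OVA minus PBS log2 difference at P30 of 1 expressed member of a gene list, the black bar is the median of the list and dashed lines mark 1.5-fold; the number of expressed members is in brackets. The isolation-responsive list has its median at 1.33 and the specific and gelatinase granule list at -0.50, while the other medians lie between -0.24 and 0.28.

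Many programmes had no or nearly no member past the threshold. The type I interferon response had none of 39 expressed members past it, with a median of 0.01; Sp100 differed by 0.52 and Ifi207 by -0.42. Cell cycle genes had none of 21, with a median of 0.07, and Mki67 at -0.33. Proteasome subunits had none of 35 and a median of 0.02. Of 34 expressed cytosolic ribosomal proteins only Rpl39 (-0.72) was past it, with a median of 0.02. Among 20 expressed heat shock proteins only Hspb3 (0.61) was, with 9 of the 20 below 0 and a median of 0.02. Dnajc3 differed by -0.55, Hspa8 by 0.51, from 18.20 to 18.70, and Hspa5 by 0.43.

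Metabolic and lipid mediator lists held few such genes either. Glycolysis and hypoxia genes had none of 23 past the threshold and a median of -0.08, and sterol synthesis and lipid efflux genes none of 13 and a median of -0.12. Among 23 iron handling and antioxidant genes Ftl1, the ferritin light chain, was higher (0.61, from 11.02 to 11.63) and Selenot lower. Complement components and receptors had none of 15 past the threshold, with a median of -0.09. The leukotriene and prostaglandin pathway had none of 16, with a median of -0.10 and Alox5ap, which neutrophils also express, at -0.51. Of 22 phagocytosis and scavenger receptors Cd68 alone was past it, and the median was -0.07.

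Markers of other brain cells were low on both arrays. None of the 5 defining markers of neurons was expressed, and of the others 1 each was for astrocytes (Slc1a3, 0.34), the oligodendrocyte lineage (Mag, 0.18) and endothelial and mural cells (Pecam1, 0.11). For T and NK cells 2 of 6 were expressed, Nkg7 (0.33) and Klrb1c (0.10), and for B cells Cd79b (0.01). The median differences of the longer lists were -0.04 for astrocytes, -0.01 for the oligodendrocyte lineage, 0.08 for neurons, 0.01 for endothelial and mural cells, -0.02 for T and NK cells, 0.01 for B and plasma cells and -0.10 for mast cells, basophils and eosinophils, over 2 to 6 expressed genes each. Ttr, transthyretin, which the choroid plexus secretes, was the exception at 7.45 in PBS and 9.32 in OVA on the P30 arrays and at 7.90 and 12.02 at P70. The choroid plexus markers Kl and Folr1 were under the floor, and Ttr was the 1 expressed gene of 19 found in the choroid plexus and ependymal list.

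The same contrast at P70 used another pair of arrays. There 353 of the 8807 genes (4.01%) were at least 1.5-fold higher in OVA and 105 (1.19%) lower, together 5.2%. At 2-fold, 42 (0.477%) were higher and 16 (0.182%) lower. Of the 57 genes higher at P30, 12 were also higher at P70, 1 was lower and 44 lay between; their median P70 difference was 0.22, against 0.09 over all expressed genes. Of the 77 lower at P30, 6 were also lower at P70, 14 were higher and 57 lay between, with a median P70 difference of 0.17. Naip6, Retnlg, Mmp8 and Il1f9 were lower in OVA at both ages, and H1f2, Ccl3, Ttr, Ccl12 and Ccl4 higher at both. Ccl4 was under the floor on both PBS arrays. The difference between the ages was not tested.

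**Figure D5:**
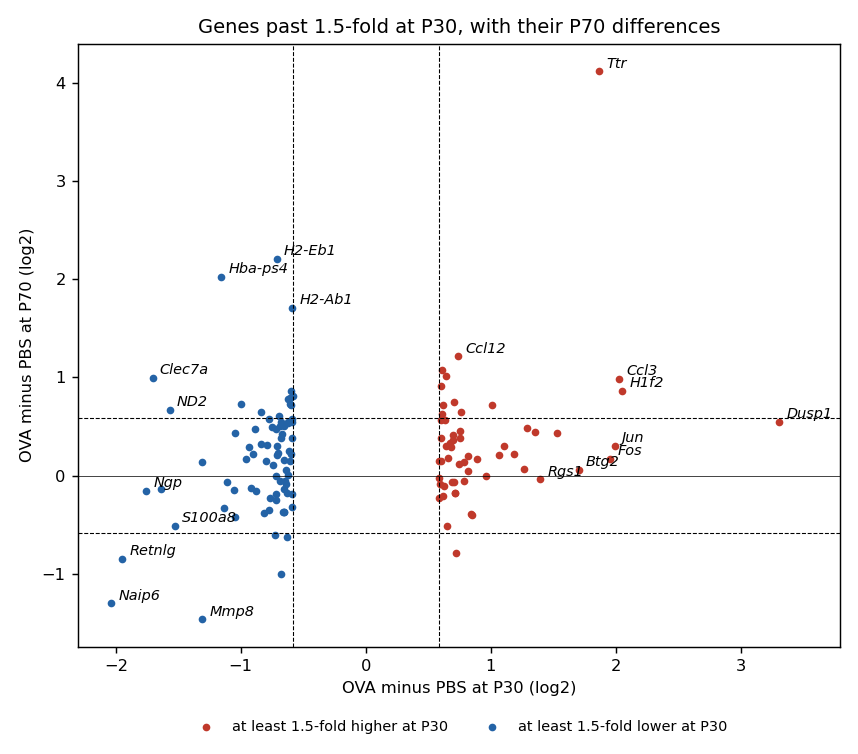
The 57 genes at least 1.5-fold higher (red) and the 77 at least 1.5-fold lower (blue) in OVA at P30, with the OVA minus PBS log2 difference at P30 on the x axis and at P70 on the y axis; dashed lines mark 1.5-fold. Most points lie between the horizontal dashed lines, H2-Eb1, Hba-ps4 and H2-Ab1 are lower at P30 and higher at P70, and Ttr is higher at both ages.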

How the data were processed

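Total RNA of pooled microglia was labelled with biotin through the GeneChip WT Pico kit, per the labels' protocols. The authors deposited linear intensities, which they had normalized and summarised to 1 value for each probe set on an array. RMA and version 1.4.1 of Affymetrix Expression Console appear in the submitters' processing notes, with no role stated. The scaling between arrays and the genome build are not given in the sources used here. Here log2 of each value was taken and nothing else was changed.

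The platform annotation gave 1 symbol to 30604 of 65956 probe sets, several to 2146 and none to 33206; RefSeq's gene table (GRCm38.p6) updated the symbols of 827. Left out were 12754 probe sets for predicted genes, small RNAs, segments of antigen receptors, and vomeronasal or olfactory receptors, leaving 17614 genes, 194 of them with over 1 probe set. Promoters are from RefSeq on GRCm38.p6, matched by symbol for 6926 of the 8807 expressed genes.

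The members and the 51 gene lists were chosen with earlier results of these data known. Named genes were the 20 highest and 20 lowest differences and, for each list, every member past 1.5-fold, the 6 next largest differences, the 3 highest levels, and the defining markers. Alternatives concerned the filter on dim genes, the normalization, an offset, the probe sets and genes at the upper limit. Python 3.11.15, numpy 2.4.6 and pandas 2.3.3 were used; the counting was tested on simulated data.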

Additional observations from a re-analysis of the deposited data

Results flagged for a closer look

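Among the named genes, 12 were at least 1.5-fold lower in OVA at P30 and at least 1.5-fold higher in OVA at P70. With 1 array per group at each age the difference between the ages was not tested. Subtracting the P30 difference from the P70 difference gave 3.18 for the globin pseudogene Hba-ps4, 2.92 for H2-Eb1 and 2.30 for H2-Ab1, both of MHC class II, 2.70 for the lectin Clec7a and 2.24 for mitochondrially encoded ND2. The lysozyme gene Lyz1 gave 1.73, the selenoprotein gene Selenot 1.49, Plek 1.46 and the immune receptors Lilrb4a and Slamf9 1.40 each. The Fc receptor Fcgr4 gave 1.34 and the fatty acid receptor Gpr84 1.31. Over all expressed genes, 15 were past the threshold in opposite directions at the 2 ages, and 18 in the same direction, 12 of these higher and 6 lower.

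Probe sets outside the named genes were counted as well. Of 19482 probe sets with no symbol, several symbols or a class left out, at or above the same floor, 84 were at least 2-fold higher in OVA at P30 and 172 at least 2-fold lower. At 1.5-fold, 677 were higher and 959 lower, together 8.40%, against 1.52% of the named genes. By class, the share was largest for olfactory or vomeronasal receptors, at 15.3% (9 higher and 55 lower of 418). It was 14.7% for antigen receptor segments and smallest for predicted genes, at 6.49%. Why these shares exceed that of the named genes was not tested. These probe sets have no single gene name used here and enter no comparison above.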

How the results depend on the processing

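The 57 higher and 77 lower genes were recounted under 10 other settings. With no filter on dim genes 98 were higher and 106 lower, and the 57 and 77 were all among them. With all probe sets of 1 symbol, over 15071 genes, 208 were higher and 375 lower. With 32 added to the intensities 43 were higher and 51 lower. Median centring gave 63 and 67, quantile normalization 80 and 85, lowess centring 63 and 68, the 75th percentile filter 38 and 54 (over 4404 genes), a filter on the P30 arrays 56 and 82, the median of probe sets 55 and 77, and leaving out genes within 0.01 of a P30 limit, which left 8806, 57 and 77. No named gene past the threshold changed sign in any setting that kept it. Of 68 such genes 13 came inside it in at least 1 setting: Dusp7, H2-Ab1, Plek and Slamf9 under the 3 other normalizations, and with the offset also Ccl4, Clec4a1, Fcgr4, Hspb3, Il1f9, Lilrb4a, Nfkbia, Nfkbiz and Per1. Genes that came past it were Sgk1 under the 3 other normalizations, Ms4a7 after quantile normalization and lowess centring, and Cybb, Lipa, Clec2d, Dnajc3, Dusp6, Nlrp3 and Sp100 after quantile normalization. The border macrophage, lysosomal and interferon lists, with none past it as reported, then had 1 member each. Of 509 list medians, 15 moved by more than the SD between probe sets of 1 gene, most of them with another filter on dim genes, and the neutrophil granule median was -0.93 with the 75th percentile filter. The cause was not tested.

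No paired analysis was possible because each group has 1 array, and for the same reason no replicate was left out. Dim genes are limited by background: 8 higher genes were under the floor in PBS and 15 lower genes under it in OVA at P30. Genes at the upper limit have no measured difference.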
